A study of Mus musculus with 2 samples.

Results

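Claudins are the membrane proteins that form the strands of tight junctions, and keratins are the intermediate filament proteins of epithelial cells. Their genes were followed in embryoid bodies, which are clumps of embryonic stem cells left to start differentiating. The genes were chosen by symbol: every probe set whose array annotation gives a single gene symbol of the form Cldn or Krt followed by a number, with keratin numbers that carry a letter included. This gave 91 of the 45101 probe sets and 68 of the 18193 genes with a symbol of their own, namely 20 claudins on 30 probe sets and 48 keratins on 61. Each gene was read from its brightest probe set, the one with the highest mean signal over both arrays. Keratin-associated proteins and the Cldn34 genes with lettered symbols do not meet the rule, and 1 probe set annotated to both Krt17 and Krt14 (signals of 45.2 and 8.6; where a pair of signals is given, the control array comes before the FGF10 array) was left out.

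The embryoid bodies came from the CGR8 mouse embryonic stem cell line (strain 129). The line was grown without feeder cells in serum and leukemia inhibitory factor, and hanging drops were used for aggregation. The control sample had differentiation medium alone, and the FGF10 sample had the same medium with recombinant FGF10, a secreted fibroblast growth factor, at 100 ng/ml. The sample titles say day 2, whereas the series design places RNA collection 24 h after treatment that itself began at day 2, so the stage is uncertain between these. There was 1 array per group, so no test, no error between cultures and no p-value can be given, and every difference below is between these particular arrays.

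A cell carries claudins in combinations: some seal the space between cells and others, such as Cldn2, Cldn10 and Cldn15, form pores for ions. Keratin filaments are built from pairs of an acidic type I and a basic type II protein. Krt8 (type II) and Krt18 (type I) are the pair of simple epithelia and among the earliest keratins of the embryo, and Krt19 is a type I keratin that also pairs with Krt8. Stratified epithelia use others, such as Krt5 with Krt14 in basal cells and Krt1 with Krt10 above them, and hair has a set of its own. Embryoid bodies hold pluripotent epiblast-like cells, which are epithelial, and an outer layer of visceral endoderm. In a mixed sample fewer cells of a type and less RNA per cell cannot be told apart.

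In the RefSeq annotation of GRCm38.p6, Krt8 and Krt18 are neighbouring protein-coding genes, and Krt18 was the only type I keratin of the 25 measured that lies with the type II genes. Cldn6 neighbours Cldn9, and Cldn3 neighbours Cldn4. Of the genes always reported here (Cldn6, Krt8, Krt18 and Krt19), 3 were found in the RefSeq promoter table, with 1 window each of 250 bases before the annotated start and 50 after it. They are shown because they are genes of simple, early epithelium that are always reported here. The windows are chr17:23679115-23679414 on the plus strand (Cldn6), chr15:102004293-102004592 on the minus strand (Krt8) and chr15:102027966-102028265 on the plus strand (Krt18), all GRCm38.p6 and written in the direction of the gene. Capitals mark exact matches, on either strand, to the TATA element TATAAA, the GC box GGGCGG or the E-box CAGGTG, which Snail family repressors are known to bind; the forward and reverse TATA matches in Krt8 overlap.

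Cldn6: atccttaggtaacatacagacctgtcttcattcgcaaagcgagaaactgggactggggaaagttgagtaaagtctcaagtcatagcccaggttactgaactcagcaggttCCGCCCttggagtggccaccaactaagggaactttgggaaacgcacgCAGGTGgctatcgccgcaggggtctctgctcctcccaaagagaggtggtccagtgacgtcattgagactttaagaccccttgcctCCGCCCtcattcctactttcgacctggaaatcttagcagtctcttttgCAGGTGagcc
Krt8: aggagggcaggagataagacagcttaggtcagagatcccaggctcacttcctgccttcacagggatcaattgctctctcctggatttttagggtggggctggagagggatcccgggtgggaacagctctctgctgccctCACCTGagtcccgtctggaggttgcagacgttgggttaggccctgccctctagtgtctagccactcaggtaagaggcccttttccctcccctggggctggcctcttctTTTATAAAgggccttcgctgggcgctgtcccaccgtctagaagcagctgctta
Krt18: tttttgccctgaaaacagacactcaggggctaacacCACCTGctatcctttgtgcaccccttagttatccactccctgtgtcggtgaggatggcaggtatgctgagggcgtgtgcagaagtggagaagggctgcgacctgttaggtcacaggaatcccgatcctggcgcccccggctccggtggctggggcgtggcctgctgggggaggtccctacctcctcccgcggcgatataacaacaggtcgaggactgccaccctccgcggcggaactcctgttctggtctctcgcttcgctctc

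The Cldn6 window held 2 GC boxes, at positions 111 and 243 counted from its first base, and 2 E-boxes, at 158 and 291. The Krt8 window held an E-box at 140 and the overlapping TATA matches at 248 and 250, and the Krt18 window an E-box at 37. The families differed in these letters. Of 32 keratins with a promoter in the table, 18 had a TATA match and 2 a GC box, whereas of 16 claudins 1 had a TATA match and 11 a GC box. Over all 27025 genes in that table, 15.7% had a TATA match, 38.2% a GC box and 22.6% the E-box in at least 1 window (13.6%, 35.7% and 20.2% of the 32851 windows). The E-box was in 5 of the 16 claudins and 12 of the 32 keratins. The claudins had 24 windows over their 16 genes and the keratins 33 over 32, so a claudin had more chances of a match. Among the genes above the array median, 7 of 7 claudins with a promoter in the table had a GC box, against 4 of 9 below it. A TATA match was in 5 of 8 such keratins above the median and in 13 of 24 below it. The E-box was in 4 of 7 such claudins above the median and 1 of 9 below, and in 5 of 8 keratins above and 7 of 24 below. A GC box was in 1 of 8 keratins above and 1 of 24 below, and a TATA match in 0 of 7 claudins above and 1 of 9 below. None of these splits was tested. A match is a run of letters and no evidence of binding.

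Most claudins and keratins were dim in these embryoid bodies. A gene was counted as above the array median when its mean signal was at or above 76.35, the median over all probe sets that are not chip controls; the medians of the arrays were 75.7 (control) and 77.9 (FGF10). By this measure 8 of 20 claudins (40%) and 11 of 48 keratins (22.9%) lay above it, against 61.1% of all 18193 genes, a share that exceeds that of single probe sets because each gene is read from its brightest probe set. The claudin share was thus 17.1 percentage points higher than the keratin share, and both were below that of genes in general. MAS5 signals depend on the probes as well as on the transcript, so a signal is set here against the array and not against that of another gene. The median of the mean signals was 49.1 for claudins, 27.4 for keratins and 173.6 for all genes. At the bottom, 11 of 48 keratins and 1 of 20 claudins had a mean signal under 10, compared with 9.16% of all genes. At the top, 3 claudins and 2 keratins exceeded 1000, or 15% and 4.17% of their families beside 23.3% of all genes.

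**Figure D1:**
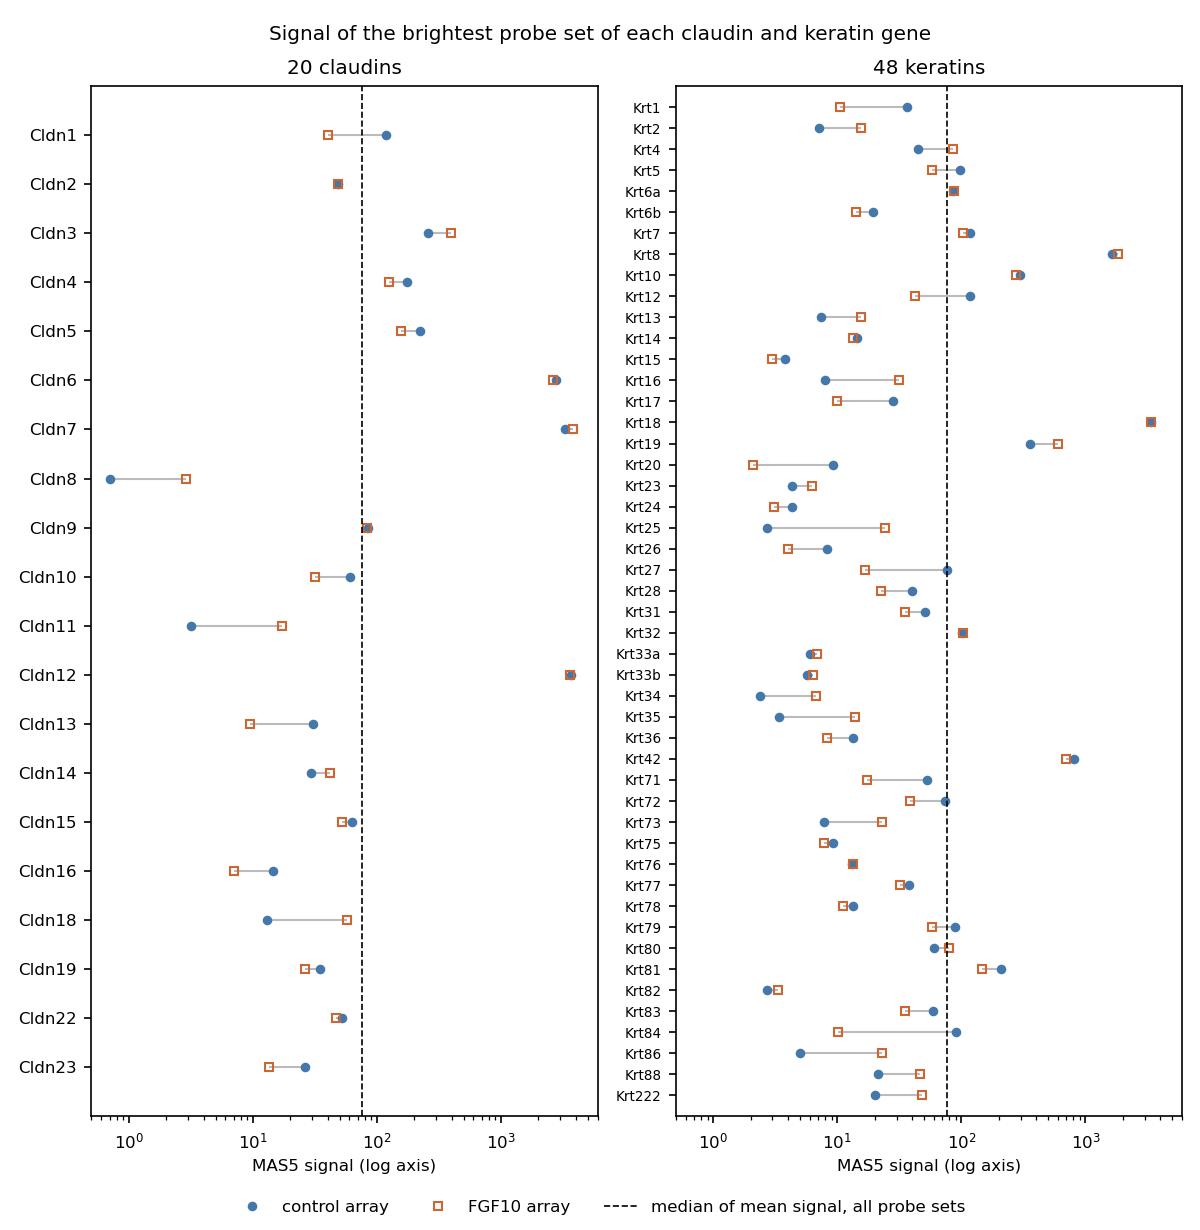
MAS5 signal (log axis) of the brightest probe set of the 20 claudins (left) and 48 keratins (right) on the control array (filled circles) and the FGF10 array (open squares), 1 array each, with a dashed line at 76.35, the median of the mean signal over all probe sets. Most genes lie to the left of the line, and Cldn6, Cldn7, Cldn12, Krt8 and Krt18 lie above 1000 on both arrays.

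**Figure D2:**
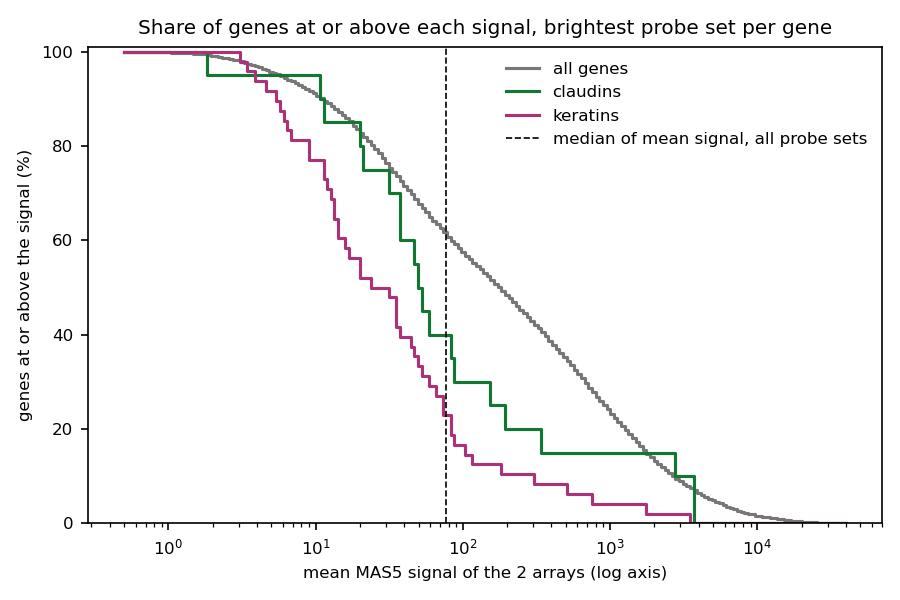
Percentage of genes whose mean signal over both arrays is at or above the value on the horizontal log axis, for claudins, keratins and all genes, each read from its brightest probe set. At the dashed line (76.35) the curves stand at 40% for claudins, 22.9% for keratins and 61.1% for all genes.

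Genes with several probe sets had more chances to pass. Among genes with a single probe set, 4 of 14 claudins (28.6%) and 7 of 39 keratins (17.9%) were above the median, against 45.6% of all such genes. With 2 or more probe sets it was 4 of 6 claudins (66.7%) and 4 of 9 keratins (44.4%), against 77%. The order of keratins, claudins and all genes was thus the same in both groups. Of the 15 claudins and keratins with several probe sets, 4 had probe sets on both sides of the median (Cldn1, Cldn9, Krt6a and Krt42). The keratins nearest the line were Krt5 (mean signal 78.2) inside it and Krt79 (73.3) outside, and the nearest claudins were Cldn1 (79.9) inside and Cldn15 (57.6) outside.

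The share above the line differed between keratin classes, and over all genes it was 61.1%. The classes also differed in probe sets: 0 of 21 hair, 6 of 18 stratified and 1 of 5 simple epithelial keratins had several. Of all genes with 1 probe set, 45.6% were above the line, so the class shares are not on an equal footing. Of 5 simple epithelial keratins, 4 were above the median (Krt7, Krt8, Krt18 and Krt19), and Krt20, the keratin of gut epithelium, was not, with signals of 9.2 (control) and 2.1 (FGF10). Of 18 keratins of stratified epithelia 4 were above it (Krt5, Krt6a, Krt10 and Krt12), and of 21 hair keratins 2 (Krt32 and Krt81). Krt42, a type I keratin outside these classes, completed the 11. The types were alike in this respect, with 6 of 25 type I and 5 of 23 type II keratins above the line.

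Krt8 and Krt18, the filament pair of simple epithelia, were high on both arrays. Krt8 had signals of 1634.8 (control) and 1835.2 (FGF10) on an _x_at probe set, whose probes can match other transcripts. Krt18 had 3380.7 and 3355.4. These arrays differed little for either gene: the log2 ratio of FGF10 over control, after subtracting the median of all probe sets above the filter, was 0.13 for Krt8 and -0.05 for Krt18. The other probe sets of Krt8 gave -0.20 (1792.6 and 1600.8, without the _x_at mark) and -0.04 (with it), so its sign depends on the probe set.

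Krt19 was the only keratin above the median that was at least 1.5-fold higher with FGF10. Its signals were 357.4 (control) and 603.7 (FGF10), which gave a log2 ratio of 0.72, or 1.65-fold. It is read by a single probe set, so no other reading of it exists on these arrays. All 11 of the other settings tried kept it past 1.5-fold, from 0.67 to 0.76, but many of them could hardly do otherwise. Those on probe set choice, and the raising of signals under the filter, had to return 0.72. Krt19 has a single probe set, and both its signals lay above the filter. Those on centring and the filter only changed the constant subtracted from every gene. Quantile normalization, loess and an offset could alter it more freely, and gave 0.67, 0.67 and 0.69. Krt7, a simple keratin of ducts, was dim and close to equal (117.7 and 103), with a log2 ratio of -0.23.

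Most keratins of stratified and hair epithelium above the median were dim, Krt10 and Krt81 less so. Those past 1.5-fold at the main setting, Krt12 and Krt5, were lower with FGF10. Krt12, known from the cornea, had signals of 116.3 and 42.5 (a log2 ratio of -1.49, with -1.47 on its other probe set). Krt5, of basal stratified cells, had 98.2 and 58.1 (-0.79). In both cases the FGF10 signal lay under the array median, where signal and background may not be separable. With such signals raised to 76.35 the ratios were -0.64 for Krt12 and -0.40 for Krt5, which is within 1.5-fold; raised so, 4.38% of all genes above the filter were 1.5-fold lower and 4.9% higher. Krt14, which pairs with Krt5, had signals of only 14.4 and 13.3. Krt10, of the upper epidermis, was at 299.3 and 276.9 (-0.15), while its partner Krt1 was at 36.2 and 10.5, below the line on both arrays. Krt6a, a keratin of hair follicles and wounded skin, was at 85.3 and 87.7 (0.01), Krt32 at 101.2 and 102.3 (-0.02) and Krt81 at 208.9 and 146.5 (-0.55), the last pair being hair keratins.

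Krt42 was at 812.6 and 694.5 (-0.26) on an _x_at probe set, whose probes can match other transcripts. Its other probe set, without that mark, gave 60.6 and 78.3, so the level of this gene is uncertain.

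The claudins above the median included 3 that were bright on both arrays and close to equal. Cldn6, a claudin of embryonic epithelia, had signals of 2751.7 (control) and 2634.9 (FGF10) and a log2 ratio of -0.10. Cldn7, which binds the adhesion protein Epcam, had 3273.5 and 3813.9 (0.19). Cldn12, an atypical claudin, had 3690.4 and 3594.9 (-0.07), with 0.17 on its other probe set. None of the 3 differed by more than the technical SD of 0.27, which was taken from pairs of probe sets of the same gene over 5213 genes and covers error within these arrays only.

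The sealing claudins Cldn3 and Cldn4, neighbours in the genome, lay on opposite sides of equality. Cldn3 was at 259.6 and 392.9, a log2 ratio of 0.56, just inside 1.5-fold (0.58), and its other 3 probe sets gave 0.61, 0.41 and 0.25, all above 0. Cldn4 was at 174.1 and 124.1 (-0.52) on its only probe set. Cldn5, the claudin of endothelium, was at 220.7 and 155.8 (-0.54). All 3 differences were under 1.5-fold at the main setting. Cldn9, the neighbour of Cldn6, was dim and equal (84.2 and 83.6, -0.04).

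Cldn1, a claudin of the epidermal barrier, was the only claudin past 1.5-fold. Its signals were 119.2 (control) and 40.5 (FGF10), which gave a log2 ratio of -1.59, or 3.01-fold lower. The other 3 probe sets, which all lay below the filter, gave -1.12, -2.06 and -0.55. As the FGF10 signal was under the array median, the size of the difference is not known; raised to 76.35 it gave -0.68.

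**Figure D3:**
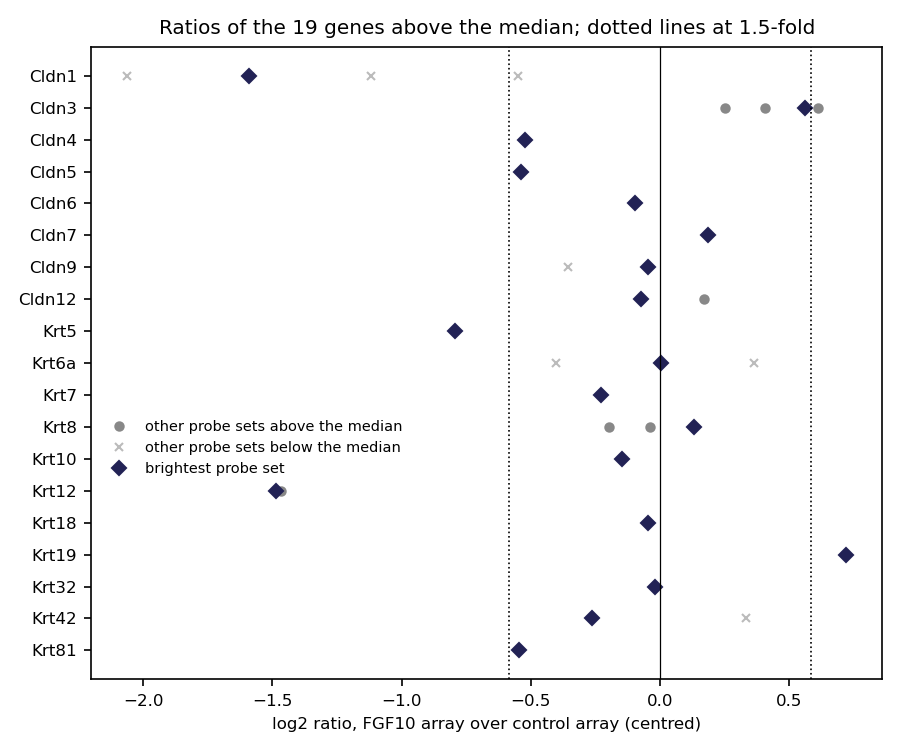
Log2 ratio of the FGF10 array over the control array for the 8 claudins and 11 keratins above the median: diamonds are the brightest probe set, grey circles other probe sets above the median, crosses those below it, and dotted lines mark 1.5-fold. Krt19 is the only diamond to the right of the dotted lines. Cldn1, Krt12 and Krt5 lie to the left of them, with FGF10 signals under the array median.

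Counted together, 0 of 8 claudins were 1.5-fold higher and 1 lower, and 1 of 11 keratins was higher and 2 lower; over the 11122 genes above the filter 5.41% were higher and 4.86% lower, 10.3% in all. At 2-fold the lower members were Cldn1 and Krt12, with none higher (1.29% of all genes lower, 1.32% higher). Cldn1, Krt12 and Krt5 passed the filter only through their control signal, so their direction is tied to the filter. With the filter on both arrays 0 claudins and 0 keratins were 1.5-fold lower, and 1 keratin (Krt19) was higher. Of all genes so filtered, 8.18% were past 1.5-fold. The median log2 ratio was -0.08 for claudins and -0.15 for keratins, beside -0.03 for all genes above the filter. The families' medians differed by 0.06, with no test of that difference. The lower members were also the dim ones. Cldn1, Krt5 and Krt12 lay in the dimmest of 10 equal bins of kept genes (mean signals of 76.35 to 117.6), in which 16.7% of 1113 genes were 1.5-fold lower and 11.9% higher. In the bin that holds Krt19 (436.6 to 643.7) 6.02% were higher and 3.5% lower. In the bin with Cldn6, Cldn7, Cldn12 and Krt18, 1.35% were higher and 1.98% lower.

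The 12 claudins and 37 keratins below the median had mean signals of 1.8 to 57.6 and 3 to 73.3. Their log2 ratios ran from -1.74 to 2.38 and from -3.21 to 3.12, at signals near the bottom of the scale, and they are not read as differences. They include the pore-forming claudins Cldn2 (48.4 and 48.8), Cldn10 (61.2 and 31.5) and Cldn15 (62.7 and 52.4), the myelin claudin Cldn11 (3.2 and 17.1) and the kidney claudin Cldn16 (14.5 and 7.1). Taken array by array, 8 claudins and 14 keratins were above the control median, as were 61.6% of all genes. For the FGF10 median it was 7 and 11, against 60.6%. Those above on both arrays were 7 claudins (35%) and 9 keratins (18.8%), against 58.6% of all genes.

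The proteins that work with claudins in tight junctions were mostly well detected and close to equal. Of 30 such genes listed, 26 had a probe set and 23 were above the filter, as were 61.1% of all genes. Of the 23, 1 was at least 1.5-fold higher and 0 lower, with a median log2 ratio of 0.07. Over all genes above the filter, 5.41% were higher and 4.86% lower. The higher gene was Tjp3, a scaffold protein under the junction, at dim signals of 80.4 and 141.1 (0.78). Tjp1, the related scaffold ZO-1, was at 4157.6 and 5192.9 (0.29). F11r, a junctional adhesion molecule, was at 1820.9 and 1815.2 (-0.04). Ocln, the strand protein occludin, was at 799.4 and 654.6 (-0.32), and its other probe set gave -0.71.

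Desmosome and filament genes other than keratins were likewise mostly near equal. Of 30 genes of desmosomes, which anchor keratin filaments, of filament linkers and of other intermediate filaments, 28 had a probe set. Above the filter were 23, as were 61.1% of all genes. Of the 23, 1 was at least 1.5-fold higher and 1 lower, with a median log2 ratio of -0.04. Among all genes above the filter, 5.41% were higher and 4.86% lower. Dsc2, a desmosomal cadherin, was higher: its signals were 168.5 and 274.6 (0.67), and its other probe set gave 1.05. Nefh, a neurofilament subunit, was lower, at 529.4 and 208.3 (-1.38). Dsp, the plaque protein desmoplakin, was at 1023.1 and 1287.5 (0.30), Jup (plakoglobin) at 348.5 and 291.4 (-0.29) and Pkp2 (plakophilin) at 2592.3 and 2902.3 (0.13). Dsg2, another desmosomal cadherin, was at 1613.8 and 1805.6 (0.13), and Plec, a linker of filaments, at 544.7 and 671.4 (0.27). Vim, the filament protein vimentin typical of mesenchyme, was at 2866.4 and 4215.4 (0.52) on an _x_at probe set. Its other probe sets, without that mark, gave 0.06 and 0.30.

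Epithelial genes outside junction and filament families were also near equal. Of 18 listed, 17 had a probe set and 14 were above the filter (61.1% of all genes were), with a median of 0.01. Of the 14, 1 was at least 1.5-fold higher and 1 lower, beside 5.41% and 4.86% of all genes above the filter. The epithelial cadherin Cdh1 was at 14038 and 13424.6 (-0.10) and Epcam at 6949.6 and 7366.2 (0.05). Rab25, a small GTPase of epithelial vesicles, was higher (315 and 523.5, 0.70), and Ovol2, a zinc finger repressor, lower (140.9 and 94, -0.62).

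Markers of the cell types an embryoid body can hold were read in the same way. For all the marker counts below, the share of all genes above the filter was 61.1%. Of those genes, 5.41% were at least 1.5-fold higher and 4.86% lower. The pluripotency genes Pou5f1 (8157.8 and 8787.2), Nanog and Sox2 were bright on both arrays, so the labelled stem cell origin is borne out by its markers. The other 3 of the 6 markers listed were also above the filter but at least 1.5-fold lower with FGF10: Zfp42 (-0.71), Dppa5a (-1.03) and Utf1 (-0.73). The summed signal of the 6 was 43364.6 (control) and 34719.9 (FGF10), and Dppa5a (17188.2 and 8648.7) made most of that difference. The log2 ratios of Pou5f1, Nanog and Sox2 were 0.07, 0.22 and -0.003. Sums here and below follow their brightest genes. All 5 nascent mesoderm markers were at least 1.5-fold higher with FGF10, their summed signal being 2477.7 (control) and 10579.4 (FGF10). Snai1, the Snail family repressor among them, was at 61 and 194 (1.63), and its part in the claudin and keratin levels was not tested. The control signal of Snai1 lay under the array median of 75.7. It passed the filter only through its FGF10 signal, so its direction is tied to the filter and the size of the difference is not known. Of 12 visceral endoderm markers, all above the filter, 6 were lower: Ttr, Apoa1, Hnf4a, Cubn, Dab2 and Sox7. The 3 higher were Sox17, Gata6 and Foxa2, which definitive endoderm also expresses. Hnf4a was lower on its brightest probe set (-0.90), while its others above the median gave 0.15 and -0.36, within 1.5-fold. The sums were 12626.3 and 11645.3, and Foxa2 (292.5 and 2563.4) raised the FGF10 sum most, so near-equal sums do not mean that most of these markers were unchanged. Visceral and definitive endoderm both express Krt8, Krt18 and Krt19, and the part of these cells in the Krt19 difference was not tested. Surface ectoderm markers were mostly under the filter (5 of 8, Trp63 and Krt14 among them), with sums of 558.3 and 503.3, as were 6 of 8 trophectoderm markers (Cdx2, Elf5 and Gata3 among them; sums of 540.2 and 699.8). Above it were Krt7 and Tfap2c, the latter at 122.6 and 396.6 (1.66), with 2.47 and 1.95 on its other probe sets. Those other probe sets had control signals of 46.5 and 40.4, under the array median, and passed the filter only through their FGF10 signals. The higher trophectoderm sum with FGF10 came from Tfap2c. Of 8 fibroblast markers 6 were under it, including Col1a1 (9.4 and 8) and Dcn (8.4 and 7.7), with sums of 641.7 and 490.4. Thy1, above it, was lower at 369.4 and 248.3 (-0.61).

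**Figure D4:**
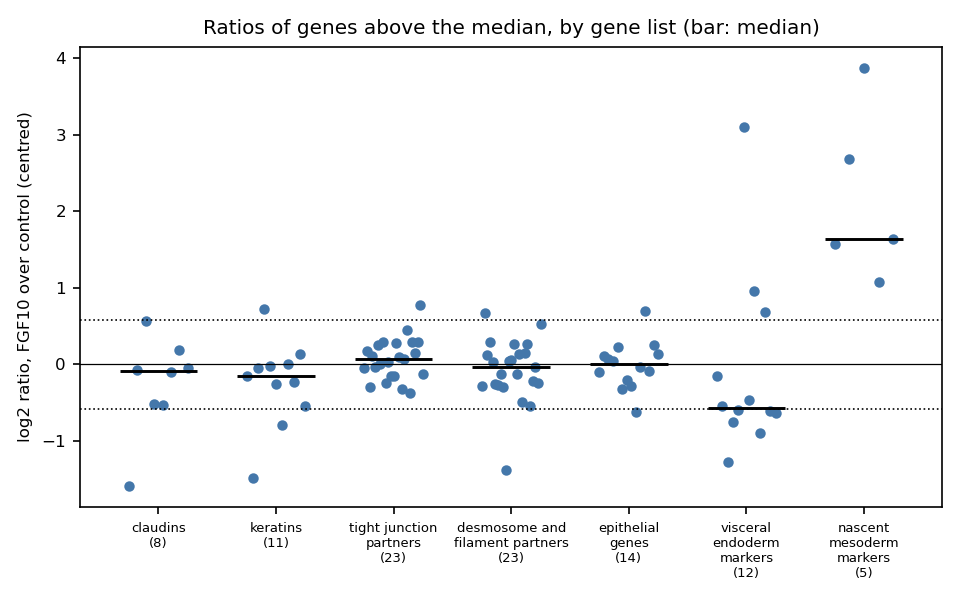
Log2 ratio of the FGF10 array over the control array for each gene above the filter in 7 lists, with the number of genes in brackets, a bar at the median and dotted lines at 1.5-fold. The medians of claudins (-0.08), keratins (-0.15) and the partner lists (0.07 and -0.04) lie near 0, while all 5 nascent mesoderm markers lie above the upper dotted line. Of these markers, Snai1 passed the filter only through its FGF10 signal.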

How the data were processed

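Total RNA from 1 control and 1 FGF10 sample was hybridised to 1 Affymetrix expression array each, per the labels. The deposited intensity values are linear MAS5 signals, per the submitters' processing notes, which give no settings. MAS5 is noisy for dim probe sets. Trimmed by 2% at either end, both columns average 500.003, as scaling to a shared target would leave them, so ratios are relative to the rest of the array. Detection calls were not used here, and 0 columns were unused. Precision is limited by the number of arrays.

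Of 45037 probe sets that are not controls, 34945 had 1 gene symbol, 932 several and 9160 none listed in the platform annotation; all 68 member identifiers were found in RefSeq (GRCm38.p6), with 0 symbols changed. The annotation there also lists 3 claudins and 5 keratins that were not analysed here. Log2 ratios of FGF10 over control had no offset and were centred by 0.034, the median over the 22524 probe sets with a mean signal of at least 76.35. Differences were counted at 1.5-fold and 2-fold, with no test.

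Named genes are every member above the array median, the nearest below it, Cldn6, Krt8, Krt18 and Krt19, partner genes past 1.5-fold and a set of partners always reported; Krt14, Krt1 and Krt20 and the other members below the median were picked with their values in view. The members, lists and rules were chosen with earlier results of these data known. Alternatives covered scaling, filter, offset, probe set choice and fold; genes with 1 probe set only was added after seeing the data. The procedure was tested on simulated data with 200 genes changed. Python 3.11.15, pandas 2.3.3, numpy 2.4.6 and statsmodels 0.14.6 were used.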

Additional observations from a re-analysis of the deposited data

How the results depend on the processing

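The shares of claudins and of keratins above the array median stayed below that of all genes, and the claudin share above the keratin share, in all 8 other settings. The counts moved by over 1.5 times where fewer genes could pass. At the 75th percentile 3 claudins and 4 keratins passed (15% and 8.33%, against 36.4% of all genes). On the second brightest probe set it was 2 of 6 claudins and 2 of 9 keratins (33.3% and 22.2%, against 57.9%), and among genes with 1 probe set 4 of 14 and 7 of 39 (28.6% and 17.9%, against 45.6%). The claudin median ratio stayed below 0 in all 11 settings (-0.13 to -0.04), and the keratin median did so in 10 of them, being 0.08 over the 4 keratins left at the 75th percentile.

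Counts past 1.5-fold are small, so a single gene moves them. Claudins numbered 2 in place of 1 without centring and on the second brightest probe set (Cldn3 joining) and after quantile or loess normalization (Cldn5 joining), and 0 at the 75th percentile or with the filter on both arrays, which leave Cldn1 out. Keratins numbered 1 at both of those filters, that gene being Krt19, and 1 at 2-fold. Without a signal filter 8 of 20 claudins and 26 of 48 keratins passed, while 29.7% of all genes did. Tight junction partners numbered 3 without a filter, 2 on the second brightest probe set (Ocln joining), and 0 at the 75th percentile and at 2-fold. Desmosome and filament partners numbered 6 without a filter, 4 after loess, 0 at the 75th percentile and 1 at 2-fold. Of 193 single-gene values under these settings, 180 stayed on their side of 1.5-fold and within the technical SD, 13 did not, and 0 of those past 1.5-fold changed sign. Some of the 180 could not change, such as those on probe set choice for genes with 1 probe set. Dim signals limit Cldn1, Krt5 and Krt12 most. No paired analysis was possible because each group has 1 array.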
